A study of Mus musculus with 12 samples.

Results

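The regions described here were accessible in the dentate gyrus of E0 mice and had no accessible peak in any mouse of the groups E1 and E4. They were found by merging the peaks of 12 lists on chromosomes 1 to 19 and X wherever peaks shared at least 1 bp, and keeping the merged regions with a peak in at least 3 of 4 E0 libraries, 0 of 4 E1 libraries and 0 of 4 E4 libraries. This gave 523 of 170710 merged regions, which is 0.306% of them. Since the members were chosen by the presence and absence of a peak in all 12 libraries, that presence is a description and carries no test.

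Each library was made by ATAC-seq from the dentate gyrus of 1 wild-type C57BL/6 mouse aged 8 weeks, with 4 mice in each group. The labels name the groups E0, E1 and E4 and do not define them. Knowledge of the publication, rather than any label, gives E0 mice as unstimulated and E1 and E4 mice as taken after electroconvulsive stimulation, at the hour that the number in the name gives. No transgene, Cre line or pooling of animals is named in the labels.

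ATAC-seq uses a transposase that inserts sequencing adapters where DNA is not wrapped tightly in nucleosomes, so that active promoters, enhancers and insulators appear as peaks of reads. The dentate gyrus is the entry station of the hippocampus and is made up mainly of granule neurons, beside interneurons, glia and vessel cells. In neurons, synaptic activity induces transcription factors of the FOS, JUN and EGR families, which bind regulatory DNA, and enhancers can gain or lose accessibility as factors come and go. A peak list of a tissue cannot separate fewer cells with an open region from less opening in each cell.

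The lists held 36861 to 77130 peaks in E0, 64152 to 84776 in E1 and 24426 to 104120 in E4 on the chromosomes used. Without read counts the depth of each library is unknown, and a region with no peak may still have been open below the calling threshold. The E4 group is uneven: replicate 1 had 104120 peaks and replicates 3, 4 and 2 had 24426, 31742 and 34863. The authors' score per peak started at 50 in these lists, on a scale that no label or header states. It served here for ranks and filters inside 1 list, and raw scores are also set side by side over the E0 lists. Their level differed between lists. In E0 replicates 1 to 4, regions of at least 3 E0 libraries, members left out, had median scores of 153, 236, 113 and 114. Spreads of raw scores over the E0 lists include this difference. The percentile given below is the rank of a peak's score among all peaks of its own list. The gene table at hand is of another genome build than the peaks, so no gene, exon, intron or promoter was assigned, no sequence is shown, and the labelled tissue was not checked against marker genes.

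The 523 regions were a small corner of the baseline landscape. Of 36222 baseline regions, those with a peak in at least 3 E0 libraries, 1.44% had no peak in E1 and E4. Absence from all E1 lists held for 1510 baseline regions (4.17%) and absence from all E4 lists for 1232 (3.4%). Both counts include the 523 members. At the other end, 9712 baseline regions had a peak in all 8 E1 and E4 libraries. The same rule turned to the other groups found 2164 regions with a peak in at least 3 E1 libraries and in no E0 or E4 library (1.27% of all merged regions), and 51 such regions for E4 (0.0299%). The lists differ in length between groups. With lists of equal length, described below, the rule gave 1031 regions for E0 (1.56% of 66005 merged regions), 961 for E1 (1.46%) and 212 for E4 (0.321%).

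**Figure D1:**
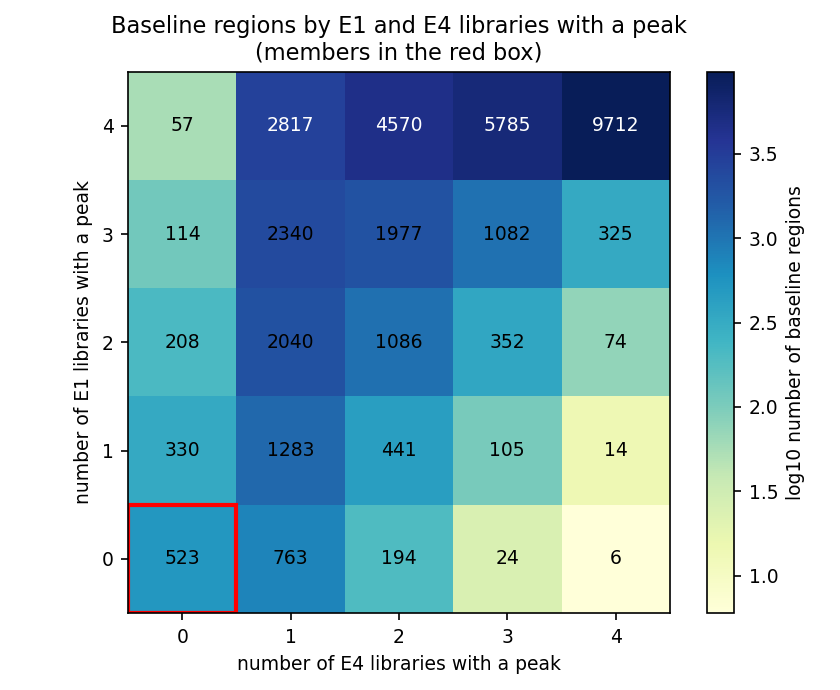
Number of baseline regions (a peak in at least 3 E0 libraries) by the number of E1 libraries (vertical axis) and E4 libraries (horizontal axis) with a peak, with the colour giving log10 of the number. The 523 regions absent at both times are in the red box at the lower left, next to 763 with a peak in a single E4 library and 330 with a peak in a single E1 library.

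A single library drew much of the border of the set. In all, 1093 baseline regions missed membership by 1 peak in 1 of the 8 E1 and E4 lists. In 712 of them (65.1%) that peak was in E4 replicate 1, the longest list. E1 replicates 1 to 4 held it in 110, 87, 77 and 56 regions, and E4 replicates 2, 3 and 4 in 23, 8 and 20. Without E4 replicate 1 the set would hold 1235 regions. The excluding peak was usually weak: its median score was 78.8, and 69.2% of these peaks scored under 100. In E4 replicate 1 the median was 91.2 and 57.4% scored under 100.

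Few weak baseline regions had a peak in the short E4 lists. Among baseline regions with a mean E0 percentile under 50, the range in which most members lie, E4 replicates 2, 3 and 4 had a peak in 28.7%, 14.4% and 24.3%. E1 replicates 1 to 4 had one in 72.7%, 69.5%, 59.0% and 53.1%, and E4 replicate 1 in 89.3%. Absence from the E1 lists and from E4 replicate 1 was therefore less common among weak baseline regions than absence from the other E4 lists. The part of list length in the number of members was not tested beyond the lists of equal length given below.

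**Figure D2:**
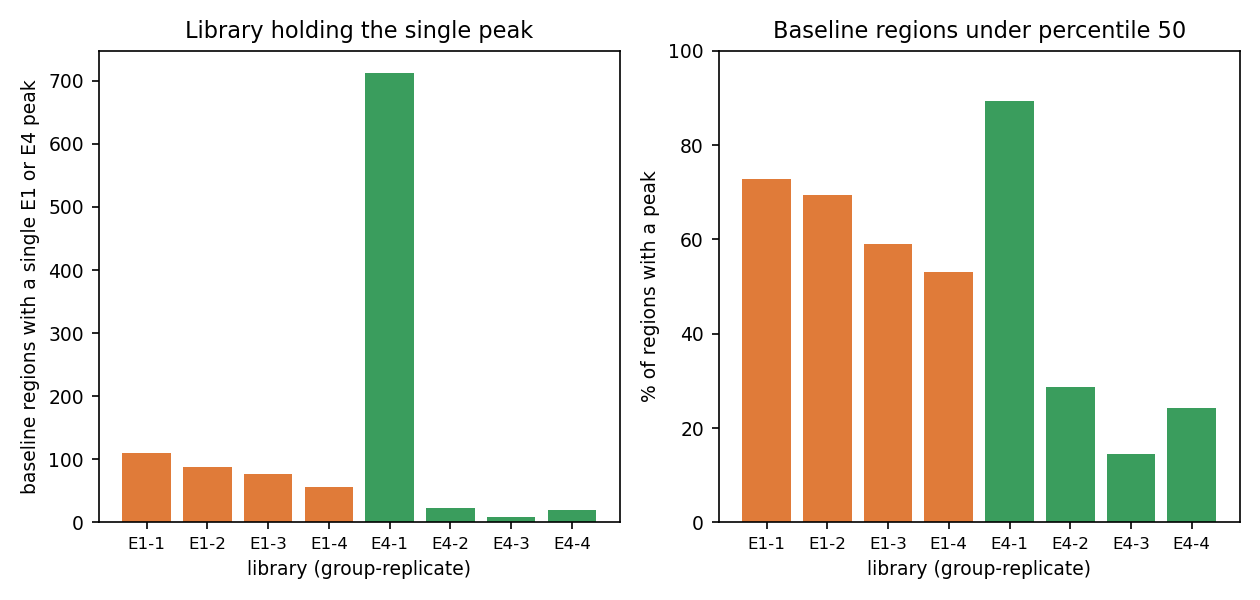
Left, the number of baseline regions kept out of the set by 1 peak, by the E1 (orange) or E4 (green) library that holds that peak. Right, the percentage of baseline regions with a mean E0 score percentile under 50 that have a peak in each library. E4 replicate 1 stands above all others in both, with 712 regions and 89.3%, and E4 replicate 3 is lowest in both, with 8 regions and 14.4%.

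Just outside the rule on the E0 side lay 2129 regions with a peak in 2 E0 libraries and none in E1 and E4, with a median mean percentile of 25.2. A further 16809 regions had a peak in 1 E0 library alone, with a median of 16.0. The members had a median of 34.7, so the score of E0-only regions was higher the more E0 lists held them. The score also decides whether a further list holds a peak, so this order is given as a description. Regions 1 peak short of membership on the E1 and E4 side had a median of 37.5.

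Of the 523 members, 85 (0.0498% of all merged regions) had a peak in 4 of 4 E0 libraries (16.3%, 95% Wilson interval 13.3 to 19.7, for counting error only), against 62.7% of the other 35699 baseline regions. The remaining 438 had a peak in 3 of 4. In these 438, the library without the peak was E0 replicate 3 in 213, replicate 4 in 144, replicate 1 in 61 and replicate 2 in 20. That order follows the length of the lists, from the shortest (36861 peaks in replicate 3) to the longest (77130 in replicate 2). Members in 4 of 4 libraries were slightly stronger and wider than those in 3 of 4, with medians of 39.5 against 33.9 for the mean percentile and of 476 against 412 bp for the width. These are widths of merged regions, and merging over more lists widens a region. The stretch shared by all E0 peaks of a region had medians of 202 against 196 bp, where no library had several peaks.

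With the lists as deposited, members were weak and narrow peaks already in the E0 mice. Their median score percentile was 35.0, 40.2, 29.3 and 30.9 in E0 replicates 1 to 4, where the other baseline regions had 70.6, 76.0, 60.6 and 63.7. The difference was -33.9 ± 2.21 percentile points (SD of the 4 libraries), with members lower in 4 of 4. The score also decides whether a peak is called, so this goes with the rule and is given as a description. It was -16.2 points with scores of at least 100 and -15.5 with lists of equal length, where weak peaks are removed beforehand. Raw scores had medians of 75.4, 93.2, 72.4 and 67.3 in the 4 lists, close to the lowest listed score of 50. No member peak in any E0 list reached percentile 90 of its list, and the highest member score of all was 372, in E0 replicate 2.

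Peaks of members were also narrower. Their median width was 315, 362, 237 and 260 bp in E0 replicates 1 to 4, against 478, 585, 324 and 369 bp for the other baseline regions, a difference of -145.5 ± 60.7 bp (SD of the 4 libraries) that was negative in 4 of 4. A narrow peak has less room to share 1 bp with a peak of another list. Width thus goes with the rule too and is given as a description. The merged member regions had a median width of 421 bp, with 5% under 294 bp and 5% over 752 bp. The other baseline regions had a median of 822 bp, but they were merged over more lists, which widens a region.

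The most similar regions were those absent from only one of the later groups. The 987 baseline regions absent from E1 with a peak in at least 1 E4 list had median percentiles of 40.9, 49.2, 31.9 and 35.2 in E0 replicates 1 to 4, and the 709 absent from E4 with a peak in at least 1 E1 list had 38.8, 44.7, 33.3 and 34.7. Both lay above the members in each of the 4 lists, by 2.54 to 8.99 and by 3.80 to 4.50 percentile points. These steps are small beside the gap to all other baseline regions. A peak in 4 of 4 E0 libraries was found for 22.8% and 23.0% of them, against 16.3% of the members.

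**Figure D3:**
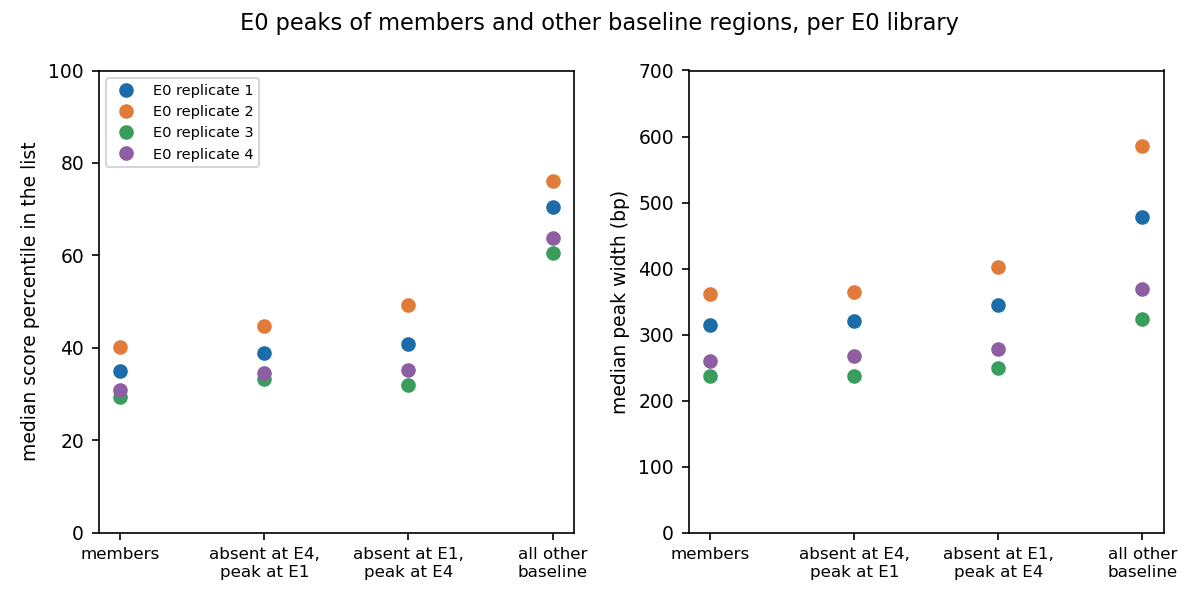
Median score percentile (left) and median peak width in bp (right) of E0 peaks in the members, in baseline regions absent at only E4 or only E1, and in all other baseline regions (every baseline region that is no member, these sets included), with 1 point per E0 library. In each of the 4 libraries the members are the lowest set by percentile, at 29.3 to 40.2, and all other baseline regions the highest, at 60.6 to 76.0.

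The share of baseline regions that were members became smaller with each step in E0 score up to percentile 80, above which there was none. Between mean percentiles 0 and 10 it was 10.1% (7 of 69 regions), between 20 and 30 it was 6.86% (134 of 1952) and between 40 and 50 it was 2.25% (116 of 5162). Between 60 and 70, 18 of 5373 regions (0.335%) were members, and between 70 and 80, 2 of 4764. None of the 4384 regions from 80 to 90 or of the 4436 from 90 to 100 was a member. The upper ends of the 95% Wilson intervals, for counting error only, were 0.0875% and 0.0865%. The score goes with the rule, so these shares are descriptions. In all, 460 members (88.0%) lay under a mean percentile of 50, against 30.7% of the other baseline regions. Regions in the upper part of the E0 lists thus contributed few members.

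**Figure D4:**
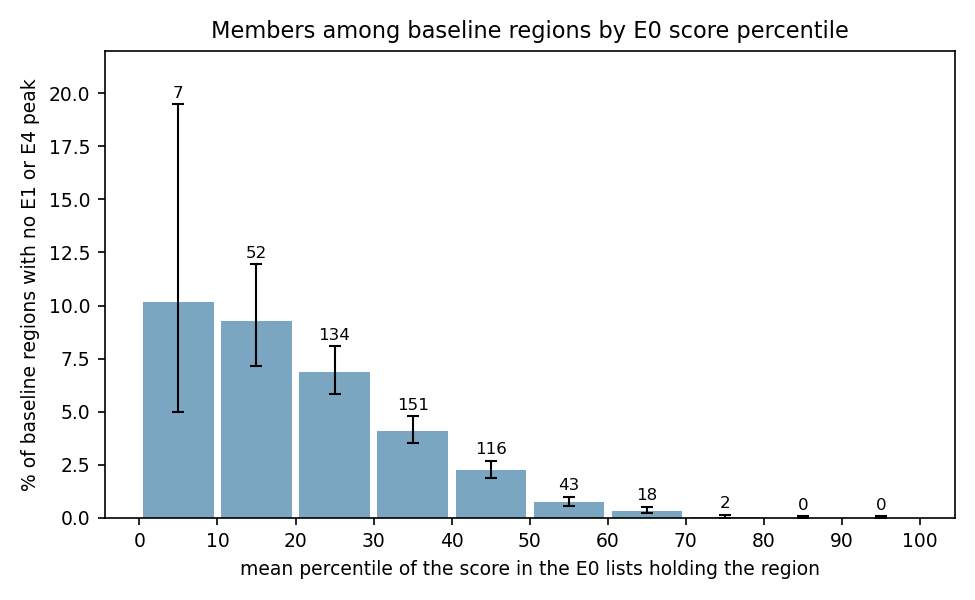
Percentage of baseline regions with no E1 or E4 peak, in 10 bins of the mean score percentile over the E0 lists that hold the region; error bars are 95% Wilson intervals for counting error only, and the number above each bar is the number of members. The bars descend from 10.1% in the lowest bin to 0 in the top 2 bins.

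Few members stood clear of the lowest scores in every E0 list that held them. All E0 scores were under 100 in 235 members (44.9%), against 8.02% of the other baseline regions, and all were 100 or more in 14 members (2.68%), against 39.02%. The other 274 members had scores on both sides. In a typical member the lowest E0 score was 59.8 and the highest 104 (medians over members), a median ratio of 1.66. Over the other baseline regions these medians were 84.2 and 239, with a larger median ratio of 2.43. The ratio goes with the number of lists: its median was 2.09 for members in 4 of 4 and 1.62 for those in 3 of 4. A peak in 4 of 4 lists was found for 62.7% of the other baseline regions and 16.3% of members. Scores start at 50, which also limits the ratio of weak peaks.

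The rank of the score within the list was only weakly related between mice over the members. Spearman's rho between E0 libraries was 0.26 for replicates 1 and 2 (442 members with both peaks), 0.23 for 2 and 3 (290), 0.13 for 2 and 4 (359), 0.12 for 1 and 3 (249), 0.06 for 3 and 4 (166) and -0.02 for 1 and 4 (318). Over the other baseline regions it ran from 0.70 to 0.82. These values are across regions, which share their libraries, and members cover a narrow range of scores.

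Members at the top of the set differed in how even their scores were over the E0 mice. The 10 with the highest mean percentile among those in 4 of 4 E0 libraries are given with the score in E0 replicates 1 to 4 in that order. By the rule, none of the 10 had a peak in any E1 or E4 library. In 3 of the 10 all scores were over 100. The first lay on chromosome 6 from 23409054 to 23410706 (mm9, 1653 bp), with scores of 154, 196, 191 and 119 and a mean of 165 ± 36.0 (SD, n = 4). Its percentiles ran from 65.8 to 81.4, so it was above the middle of all 4 lists, and the nearest E1 peak lay 978 bp and the nearest E4 peak 983 bp away.

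The second, on chromosome X from 73408355 to 73408876 (522 bp), scored 143, 234, 135 and 145. The raw score of replicate 2 was apart from the other values, which lay close together. In rank the region was the most even of the 10, at percentiles 67.9, 75.7, 68.9 and 73.5 in replicates 1 to 4. The nearest peak of an E1 or E4 list was 5942 bp away. A region on chromosome 10 from 100620151 to 100620763 (613 bp) was the third, with 272, 239, 140 and 82.7. There replicates 1 and 2 were high and replicate 4 low, and the mean was 183 ± 87.5 (SD, n = 4).

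The highest mean score, 207 ± 128 (SD, n = 4), was that of the fourth, on chromosome 18 from 90396033 to 90396836 (804 bp). Its scores were 227, 372, 160 and 69.0, so the highest and the lowest differed by more than the mean itself. The nearest E1 or E4 peak was 18281 bp away. The fifth lay on chromosome 10 from 115333215 to 115333715 (501 bp) and scored 200, 195, 107 and 128, all of them over 100.

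Also on chromosome 10, the sixth ran from 28474666 to 28475317 (652 bp) and scored 214, 255, 130 and 73.7. On chromosome 1 the seventh, from 141658222 to 141658720 (499 bp), scored 79.2, 326, 135 and 134, where replicate 2 was highest and replicate 1 lowest. The eighth, on chromosome X from 47098496 to 47099038 (543 bp), scored 91.7, 141, 186 and 116. It was the only one of the 10 that was highest in replicate 3.

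Ninth was a region on chromosome 6 from 89448981 to 89449696 (716 bp), with scores of 187, 356, 61.2 and 123. It ranged from percentile 13.5 in replicate 3 to percentile 85.7 in replicate 2, the widest spread of ranks among the 10, and an E4 peak lay 1059 bp away. The tenth, on chromosome 10 from 69193223 to 69193857 (635 bp), scored 101, 232, 109 and 98.0, again with the raw score of replicate 2 apart. Its percentiles were 52.3, 75.5, 58.3 and 56.1. Of the 10 regions, 4 were on chromosome 10, which held 38 of all 523 members. An E1 or E4 peak lay within 2 kb of 3 of the 10. Of all members, 24.1% had one within 1 kb, and the share within 2 kb was not counted.

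**Figure D5:**
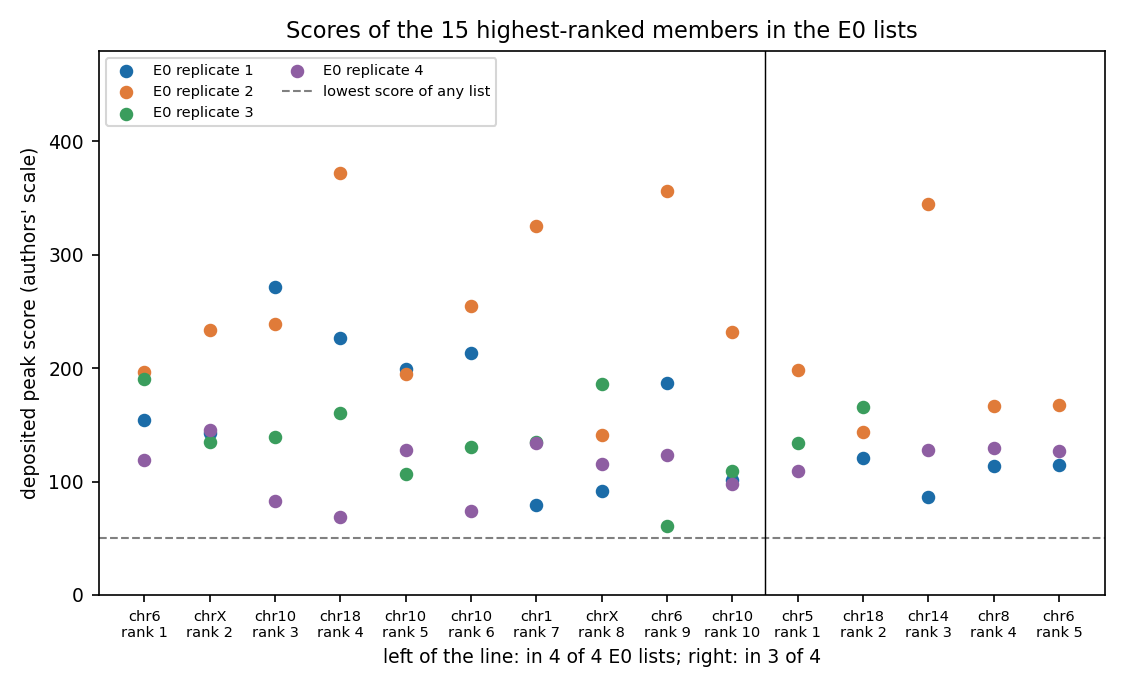
Deposited peak scores (linear axis, the authors' scale) of the 15 highest-ranked members, with 1 point per E0 library that holds a peak; the dashed line is the lowest listed score, 50. Among the 10 regions in 4 of 4 lists the scores run from 61.2 to 372. In 7 of the 10 a score is over 2 times another, and in 7 E0 replicate 2 is highest. Replicate 2 also had the highest scores over the other baseline regions, with a median of 236, against 153, 113 and 114 in replicates 1, 3 and 4.

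Among members in 3 of 4 E0 libraries, the highest mean percentile was that of chromosome 5 from 90008590 to 90009375 (786 bp), which scored 199, 134 and 110 in replicates 2, 3 and 4. It had no peak in replicate 1, and an E1 peak lay only 121 bp from it. Next came chromosome 18 from 13916810 to 13917241 (432 bp), with 121, 144 and 166 in replicates 1 to 3. The rest of these 5 lacked a peak in replicate 3. One on chromosome 14, 92265295 to 92265802, had a mean score of 186 ± 139 (SD, n = 3), which it owed to 345 in replicate 2, beside 86.7 and 128 in replicates 1 and 4. Another, at 98456771 to 98457173 of chromosome 8, was more even, at 137 ± 27.4 (SD, n = 3). So was the last, at 53269764 to 53270204 of chromosome 6, at 136 ± 27.6 (SD, n = 3).

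The weakest members scored barely above the floor. The region with the lowest mean percentile, on chromosome 9 from 121915978 to 121916276 (299 bp), scored 54.4, 55.9 and 51.1 in replicates 1 to 3, and E1 and E4 peaks lay 188 and 117 bp away. The next lowest, on chromosome 13 from 21116654 to 21116927 (274 bp), scored 53.0, 56.8 and 50.8 in replicates 1, 2 and 4. The widest member, 2066 bp on chromosome 7 from 52961288 to 52963353, was weak too, with scores of 68.0, 63.3 and 72.4 in replicates 1 to 3. An E4 peak lay 102 bp from it.

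Members were spread over all chromosomes used, from 13 on chromosomes 17 and 19 to 45 on chromosome 1. As a share of the baseline regions of a chromosome they ran from 0.885% on chromosome 2 (22 of 2486, 95% Wilson interval 0.585 to 1.34) to 1.96% on chromosome 12 (32 of 1635, 1.39 to 2.75). The interval of chromosome 2 did not reach the 1.44% of all baseline regions. It is the lowest of 20 chromosomes, picked after its value was seen, and the intervals cover counting error only.

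Members lay far apart. So few regions lie far apart wherever they fall, and the spacing of an equal number of other regions was not computed. The median distance from a member to the next was 1708441 bp, and 14 members (2.68%) had another within 50 kb, forming 7 pairs and no larger run. That share was 8.99% without E4 replicate 1, which adds 712 regions, and 7.08% with the lists of equal length described below. The closest pair lay 11508 bp apart on chromosome 5, from 38929054 to 38929457 and from 38940966 to 38941419. The first of this pair had a peak in 4 E0 libraries with scores of 62.9, 66.5, 60.1 and 66.7, and the second scored 95.9, 51.1 and 66.8 in replicates 2, 3 and 4. All 7 scores of the pair were thus under 100.

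The surroundings of members were set beside those of other baseline regions, with no test. The nearest other baseline region lay a median of 18356 bp from a member and 17186 bp from another baseline region. That neighbour was absent from all E1 lists for 28 members (5.35%) and for 4.42% of the other baseline regions, and from all E4 lists for 27 members (5.16%) and 3.43%. It was itself a member for 8 members (1.53%) against 1.48%. A neighbour with a peak in all 12 libraries was found for 18.5% of members against 24.1%, and the nearest region with a peak in all 12 libraries lay a median of 99214 bp away, against 71124 bp. At short range the order was the other way: 7 members (1.34%) had such a region within 1 kb, against 0.560%, and 32 (6.12%) had another baseline region within 1 kb, against 3.69%.

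Some members had an E1 or E4 peak close by that did not touch them. Of the 523, 38 (7.27%) had one within 200 bp and 126 (24.1%) within 1 kb, and the median distance to the nearest E1 or E4 peak was 3189 bp. A peak of any E1 list lay within 1 kb of 18.5% of members, against 21.9% of the baseline regions absent from E1 alone. For any E4 list this was 19.7%, against 15.9% of those absent from E4 alone. Single lists followed their length, from 17.4% within 1 kb for E4 replicate 1 to 2.29% for E4 replicate 3. For the 38 members, whether the neighbouring peak is the same site called at other edges was not tested.

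With every list limited to its 24426 highest scores, the length of the shortest, the rule found other regions. It then gave 1031 E0-only regions of 66005 merged regions, beside 961 for E1 only and 212 for E4 only. Only 12 of the 523 members were among the 1031, and 9 of the 10 strongest members in 4 of 4 lists were among these 12. Requiring a score of at least 100 in every list gave 216 regions, of which 27 overlapped a member, including all 10 of these. The share of the 216 among all merged regions of that setting is not given here. High-scoring regions were chosen for naming, which nearly fixes that they stay.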

How the data were processed

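One peak list per library was used, 12 in all, 4 for each of E0, E1 and E4, grouped by sample title. The submitters' processing notes name Bowtie2 and the mm9 genome, and peak names carry the MACS prefix, per the file contents. Each peak has a score, used as the authors deposited it. Caller version, control, threshold, transposase shift and duplicate handling: not given in the sources used here. Coordinates are mm9, counted from 1.

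Peaks of chromosomes 1 to 19 and X were merged where they shared 1 bp (Python 3.11.15, pandas 2.3.3; bedtools 2.31.1 gave the same 170710 regions; tested on simulated data). Other peaks, 9 to 43 per list, were left out. Where a library had several peaks in a region, the highest score stands for it. The members and lists were chosen with earlier results of these data known. Regions were named by rule: the 10 highest mean E0 percentiles in 4 of 4 lists, the 5 highest in 3 of 4, the widest, the closest pair and the 2 lowest. An exact two-sided sign-flip test of score and width over the 4 E0 libraries had been planned. It cannot give p under 0.125, and score and width go with the rule, so these values are descriptions. Planned gene lists and motifs need an mm9 annotation or genome and were not used here. Mice are the replicates.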

Additional observations from a re-analysis of the deposited data

Results flagged for a closer look

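In a group of 4 libraries, a value was singled out when its gap to the nearest other was nearly the whole range of the group (Dixon's test at 95%). Of 20 groups examined, 5 had such a value. In 3 of them it was E4 replicate 1, with 104120 peaks in its list, with a peak in 929 of the 1510 baseline regions absent from all E1 lists (123, 68 and 127 in the other three) and with the only E1 or E4 peak in 712 baseline regions that just missed membership. These 3 values are not independent, since all come from the same long list. The other 2 were single scores of E0 replicate 2, 234 for the member on chromosome X from 73408355 to 73408876 and 232 for the one on chromosome 10 from 69193223 to 69193857. Counts of peaks go with the rule, and these members were picked for high percentiles. Raw scores of E0 replicate 2 were also the highest over the other baseline regions. Their median there was 236, against 153, 113 and 114 in E0 replicates 1, 3 and 4. The part of this level in the 2 flagged scores was not tested. The flags are therefore descriptions, and their number was not set against chance.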

How the results depend on the processing

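The number of merged regions depended on the processing, with 170710 for the lists as deposited and 66005 for lists of equal length. The number of members, 523, did so too. It was 216 with scores of at least 100, 1031 with lists of equal length and 85 with a peak required in 4 of 4 E0 libraries, and ran from 105 to 1235 when 1 library was left out: 146, 105, 298 and 229 without E0 replicates 1 to 4, where all 3 remaining libraries must hold the region, and 1235 without E4 replicate 1. The share with an E1 or E4 peak within 1 kb, 24.1%, was 7.87% with scores of at least 100, 6.01% with equal lists, 41.5% when peaks had to cover 50% of a region, 19.96% with peaks up to 100 bp apart merged, 18.1% when no E1 or E4 peak could lie within 200 bp, 28.2% with 4 of 4 E0 libraries and 20.1% to 30.1% with 1 library left out. The lower score percentile and width of members kept their direction in all 19 alternatives. Score and width go with the rule under each of them, so the kept direction is a description. The percentile difference of -33.9 was -16.2 with scores of at least 100 and -15.5 with equal lists. The members' median percentile of 34.7 was 66.3 and 68.3 there. Both settings remove low scores by construction. The share in 4 of 4 E0 libraries, 16.3%, was 31.6% with equal lists, and the share with another member within 50 kb, 2.68%, was 7.08% there and 8.99% without E4 replicate 1. Of the 523 members, 356 stayed under the 50% rule, 499 with merging at 100 bp and 523 with regions from the E0 lists alone. The counts of members that stayed, and the shares within 1 kb under the 200 bp and 4 of 4 settings, were added after seeing the data. No paired analysis was possible because the replicate numbers of E0, E1 and E4 name separate mice and no difference between these groups was tested. Depth is unknown, so whether an absent peak was missed or closed cannot be told from a list.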
